A study of Mus musculus with 8 samples.

Results

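The genes described here are 4 classical cadherins (Cdh1, Cdh2, Cdh3 and Cdh4), the epithelial adhesion molecule Epcam, the intermediate filament gene Vim, and the transcription factors Snai1, Snai2, Zeb1 and Zeb2. They were chosen by name, as genes that mark or control the epithelial or mesenchymal state of a cell, and all 10 were found among the 19429 genes of the deposited table. RNA was sequenced from LF2, a line of mouse embryonic stem cells (mESCs), cultured with LIF and serum. Both genotypes carried a C-terminal FLAG tag on TET1. The WT group had unmutated TET1 (lines 2 and 5) and the D2018A group had TET1 with an aspartate near the C-terminus changed to alanine (lines 7 and 8), a change made to weaken binding of the O-GlcNAc transferase OGT. Each of the 4 lines was grown from a single cell and gave 2 technical replicates, for a total of 8 libraries, 4 of WT and 4 of D2018A. The study also describes a genomic deletion away from the edited site that the WT cells have and the D2018A cells lack.

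The value used for each gene was the authors' mean normalised count, a single number over all libraries of their fit. Reads per library are divided by a size factor that corrects for depth and then averaged. A single mean carries no standard deviation, number of replicates or test, and levels in WT and D2018A were not separated. The results below therefore describe how much of each transcript the pooled libraries held and make no comparison of genotypes. These pooled libraries may include some beyond the 8 described, as set out below. In bulk RNA, fewer cells of a type and less RNA per cell cannot be told apart.

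Classical cadherins are transmembrane proteins that bind like cadherins on the neighbouring cell, while their cytoplasmic tails hold catenins that connect to actin. Epithelial cells use E-cadherin, the product of Cdh1, as do mESCs and the early epiblast. When epithelial cells turn mesenchymal, as at gastrulation or in the neural crest, E-cadherin gives way to N-cadherin (Cdh2) and vimentin filaments appear. The zinc finger factors of the Snail family (Snai1, Snai2) and the ZEB family (Zeb1, Zeb2) bind E-box motifs such as CACCTG and repress epithelial genes.

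To learn how many libraries a mean covers, the smallest means were examined. A gene with 1 read in 1 library has a mean that depends only on that library's size factor, so many genes share that value. There were 12 such values, shared by 38 to 123 genes each, the lowest at 0.0565. By this count the means covered 12 libraries, 4 more than the 8 described. Which cells the others came from is not given in the sources used here. The count depends on how many genes must share a value, and was 5 with at least 50 genes. Size factors taken from these 12 values lay between 0.726 and 1.47, a 2.03-fold range of depth. The means of all genes added up to 10937569 counts. All 10 embryonic stem cell markers examined lay in the top 10% of protein-coding genes, from 520 per kilobase for Zfp42 to 5903 for Utf1. Of 10 fibroblast (feeder cell) markers looked for, 4 were not in the table. Among the other 6, only Thy1, at 64.8 per kilobase, lay above the median.

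Levels of different genes were compared per kilobase of annotated exon, since a longer transcript gives more reads. For 16931 protein-coding genes the median was 24.5 per kilobase, with quartiles at 2.36 and 106. Of the 10 genes 6 lay above this median: Vim, Cdh1, Epcam, Cdh3, Zeb1 and Snai1. The other 4, Cdh4, Cdh2, Snai2 and Zeb2, lay below it. The mean of Zeb2, the lowest per kilobase, still rested on roughly 272 reads over the 12 libraries, and that of Snai2 on roughly 269. Beyond this, the sampling error of single libraries was not analysed here.

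**Figure D1:**
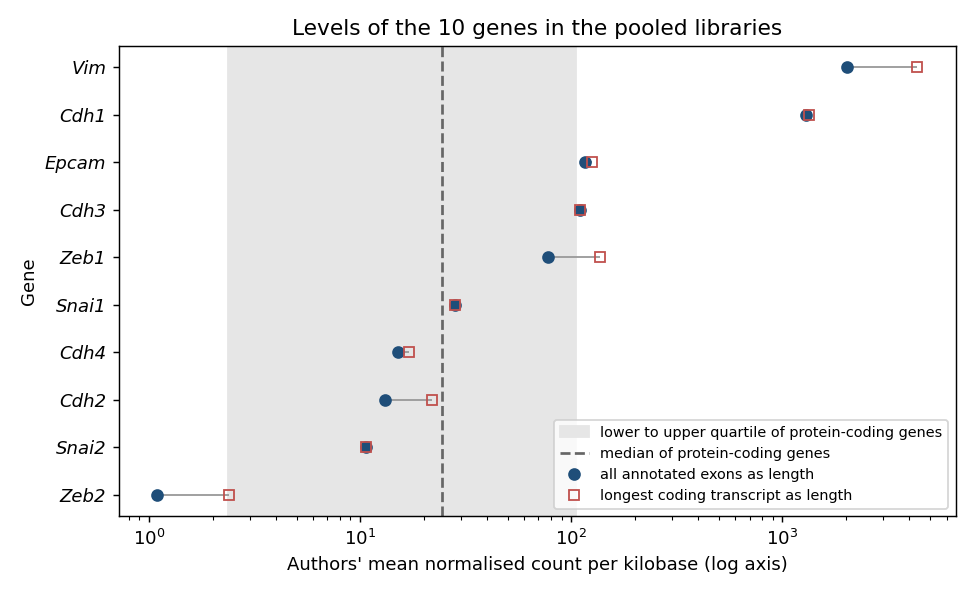
Authors' mean normalised count per kilobase (log axis) for the 10 genes, with all annotated exons (filled circles) or the longest coding transcript (open squares) as length. The grey band spans the quartiles of protein-coding genes and the dashed line is their median of 24.5. Vim and Cdh1 stand above the rest, at 2021 and 1291 per kilobase, and Zeb2 is lowest, at 1.09.

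Cdh1 (chromosome 8, 106603351 to 106670246, plus strand, GRCm38) encodes E-cadherin. Its mean normalised count was 5904, or 1291 per kilobase of its 4574 exonic bases. This level was 52.6 times the median of protein-coding genes and higher than that of 98.4% of them. Among the 22 cadherin genes in the table Cdh1 was the highest, the only one in the top 10%.

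Cdh3 (chromosome 8, 106510891 to 106557297, plus strand) encodes P-cadherin, which is best known from placenta and basal epithelium. It lies upstream of Cdh1 on the same strand, with 46053 bases and 2 other annotated genes between its end and the start of Cdh1. Its mean normalised count was 481, or 110 per kilobase, which is above the level of 75.7% of protein-coding genes. Cdh1 was 11.8 times higher per kilobase, so these nearby genes differed by more than 10-fold. This ratio was between 11.8 and 14.1 with every length tried.

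Cdh4 (chromosome 2, 179442431 to 179899373, plus strand) encodes R-cadherin, known from retina and brain. Its mean normalised count was 110, or 15.1 per kilobase, at percentile 42.7 of protein-coding genes. Cdh2 (chromosome 18, 16588877 to 16809246, minus strand) encodes N-cadherin, the cadherin of neural and mesodermal cells. Its mean normalised count was 106, or 13.2 per kilobase, at percentile 41.1.

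The ratio of E-cadherin to N-cadherin transcripts is a common measure of epithelial state. Per kilobase of exon Cdh1 was 98.1 times as high as Cdh2, and 60.8 times with the longest coding transcript as length. Of the summed level of the 4 classical cadherins per kilobase, Cdh1 made up 90.3%, Cdh3 7.69%, Cdh4 1.06% and Cdh2 0.920%. Which of Cdh2 and Cdh4 was higher cannot be said. Their ratio of Cdh4 to Cdh2 was 1.15 per kilobase of exon, 0.783 with the longest coding transcript and 1.03 without length.

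Most of the remaining cadherins were lower. Of 23 cadherin genes looked for, 22 were in the table, and 3 lay above the median of protein-coding genes: Cdh1, Cdh3 and Cdh24, a cadherin of the type II group, at 41.6 per kilobase. The median cadherin gene had 0.969 per kilobase, which is at percentile 18.8 of protein-coding genes. The lowest 3 were Cdh8 at 0.0423, Cdh16 at 0.0173 and Cdh6 at 0.00855 per kilobase. For Cdh6 and Cdh16 the mean normalised counts, 0.0771 and 0.0655, were those of 1 read in 1 library. Cdh5, the cadherin of endothelium, had 3.62 per kilobase.

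**Figure D2:**
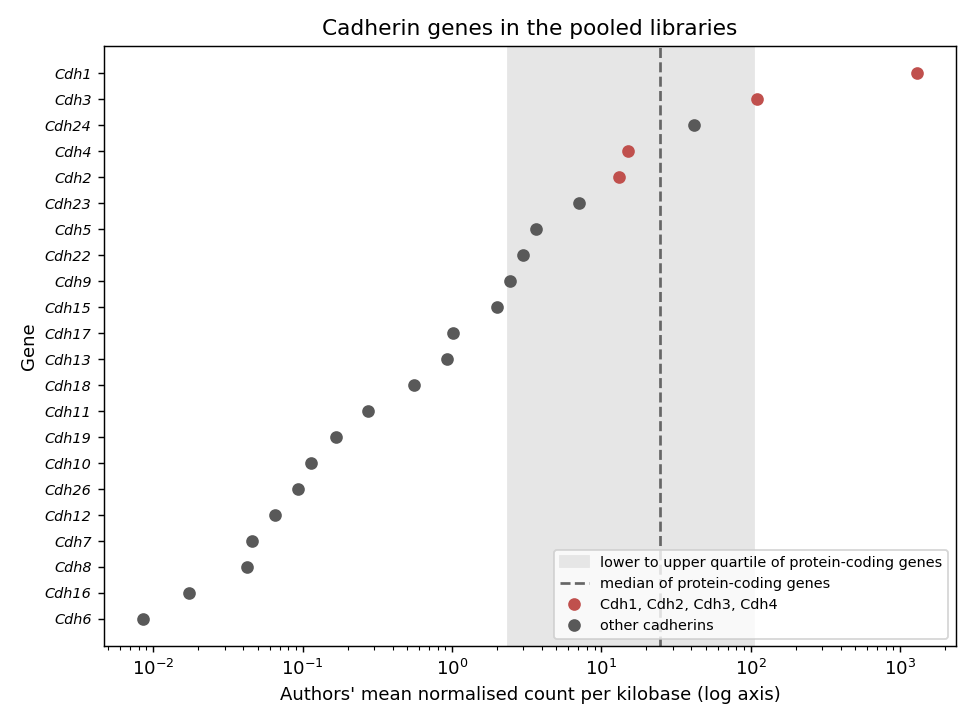
Authors' mean normalised count per kilobase of exon (log axis) for the 22 cadherin genes in the table, with Cdh1 to Cdh4 in red. The grey band and dashed line mark the quartiles and the median (24.5) of protein-coding genes. Cdh1 at 1291, Cdh3 at 110 and Cdh24 at 41.6 lie right of the median, and most other cadherins lie left of the band.

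E-cadherin works through its catenins, and 4 of the 6 catenin genes were above the median. Jup, which encodes plakoglobin (gamma-catenin), was at 858 per kilobase, and Ctnnb1, which encodes beta-catenin, was at 621. Ctnna1, the alpha-catenin of epithelia, was at 342, and Ctnnd1, which encodes p120-catenin, was at 157. Transcripts of Ctnnd1 share 56.7% of their 50-base stretches with the annotated gene Gm28635, so reads of that gene could be lost or split in counting. The neural and cardiac alpha-catenins were near 0, with 0.0706 per kilobase for Ctnna2 and 0.0193 for Ctnna3. Levels of Jup, Ctnnb1, Ctnna1 and Ctnnd1 were thus each above that of Cdh3 and below that of Cdh1.

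Epcam (chromosome 17, 87635979 to 87651106, plus strand) encodes a surface protein of epithelia that is also found on pluripotent cells. Its mean normalised count was 256, or 116 per kilobase, at percentile 76.7. Per kilobase of exon it was close to Cdh3 and was 11.1 times lower than Cdh1. The ratio of Cdh1 to Epcam was 8.00 with the mean coding transcript, 10.6 with the longest coding transcript and 23.1 without length. With the mean coding transcript Epcam had 193 per kilobase against 110 for Cdh3. The order of Epcam and Cdh3 was reversed without length, since the exons of Epcam add up to 2195 bases and those of Cdh3 to 4384.

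The RefSeq promoter table (GRCm38.p6) held windows for 4 of the 10 genes, Epcam, Snai1, Vim and Zeb2. It was searched because Snail and ZEB factors are known to bind CACCTG. The motif was looked for on both strands, as CACCTG or CAGGTG, from 250 bases before to 50 bases after each start. It occurred in 20.2% of all 32851 windows, and 2.88% held at least 2 copies. The Epcam window (chr17:87635729-87636028, plus strand) held 2 copies and the Snai1 window (chr2:167537945-167538244, plus strand) held 1. None was in the Vim window or in the 4 windows of Zeb2. Both windows with the motif are printed 5′ to 3′, with each copy in capitals.

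Epcam: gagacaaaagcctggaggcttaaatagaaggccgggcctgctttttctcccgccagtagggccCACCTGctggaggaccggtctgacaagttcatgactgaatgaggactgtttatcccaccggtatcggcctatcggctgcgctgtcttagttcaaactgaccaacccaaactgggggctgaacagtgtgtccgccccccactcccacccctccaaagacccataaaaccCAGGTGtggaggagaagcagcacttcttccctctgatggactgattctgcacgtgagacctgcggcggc

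Snai1: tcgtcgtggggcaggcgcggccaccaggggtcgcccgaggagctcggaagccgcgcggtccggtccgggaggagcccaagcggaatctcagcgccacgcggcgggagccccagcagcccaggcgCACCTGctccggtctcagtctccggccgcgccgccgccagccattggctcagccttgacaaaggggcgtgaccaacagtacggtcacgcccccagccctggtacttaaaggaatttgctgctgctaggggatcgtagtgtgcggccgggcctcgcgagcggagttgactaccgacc

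These matches describe the letters of the windows only. No binding was measured, and whether Snail or ZEB factors act on Epcam in these cells was not tested. The Snai1 window was also rich in CpG, the dinucleotide at which TET1 acts, with 34 copies against a median of 7 over all windows. Epcam and Vim had 11 each, and the 4 windows of Zeb2 between 8 and 19.

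Vim (chromosome 2, 13573927 to 13582826, plus strand) encodes vimentin, the intermediate filament of mesenchymal cells. It was the highest of the 10 genes, with a mean normalised count of 9586, or 2021 per kilobase. This was 82.4 times the median of protein-coding genes, at percentile 99.1. The Vim level was 1.57 times that of Cdh1 per kilobase of exon and 3.28 times with the longest coding transcript, because 4743 bases of annotated exon include more than that transcript's 2193 bases. A common mesenchymal marker and the main epithelial cadherin were thus both among the highest genes of the same pooled libraries. Vim is also expressed by fibroblasts. Of 10 fibroblast markers looked for, the 6 in the table ran from 0.0554 (Col1a2) to 64.8 (Thy1) per kilobase. How much of the Vim level came from such cells was not tested.

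Of the 4 transcription factors Zeb1 was the highest. Zeb1 (chromosome 18, 5591860 to 5775467, plus strand) had a mean normalised count of 795, or 77.5 per kilobase, at percentile 69.3. Its paralog Zeb2 (chromosome 2, 44983632 to 45117395, minus strand) had 21.8, or 1.09 per kilobase, at percentile 19.5. The ZEB genes thus lay on opposite sides of the median. Zeb1 was 71.0 times Zeb2 per kilobase of exon, 57.5 times with the longest coding transcript and 36.5 times without length. Annotated exons of Zeb2 add up to 19942 bases over 29 transcripts, which lowers its value per kilobase. The annotated antisense gene Zeb2os overlaps Zeb2 by 3381 bases on the other strand, and Gm10125 overlaps Zeb1 by 1646 bases, also on the other strand. Whether reads were counted by strand is not given in the sources used here, and without it reads of the shared exonic stretches, 1.99% of those of Zeb2 and 1.41% of those of Zeb1, cannot be assigned to 1 gene. Gm15485 lies inside the span of Cdh2 on the other strand but shares no 50-base stretch with its transcripts.

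Snai1 (chromosome 2, 167538195 to 167542814, plus strand) had a mean normalised count of 45.8, or 28.3 per kilobase, at percentile 52.2. Snai2 (chromosome 16, 14705852 to 14709395, plus strand), which encodes Slug, had 21.6, or 10.7 per kilobase, at percentile 38.5. Per kilobase Snai1 was 2.65 times as high as Snai2. Zeb1 alone made up 65.9% of the summed level of Snai1, Snai2, Zeb1 and Zeb2, which was 117 per kilobase of exon. This share was larger with other lengths. Zeb1 had 137 of 178 with the longest coding transcript, 319 of 367 with the mean coding transcript and 795 of 884 without length. The sum per kilobase of exon was 1.01 times the level of Epcam. It was 1.42 times with the longest coding transcript, 1.90 times with the mean coding transcript and 3.46 times without length. With each of these the sum was below the level of Cdh1. Whether the factors repress Epcam or Cdh1 was not tested.

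Transcripts of the 10 genes were largely distinct from those of other annotated genes over stretches of 50 bases, the read length. Near matches and copies elsewhere in the genome were not examined. Cdh1, Cdh2, Cdh3, Cdh4, Epcam, Vim and Snai1 shared no 50-base stretch with any other annotated gene, and Snai2, Zeb1 and Zeb2 shared 0.964%, 1.77% and 2.26%. The cadherins are a gene family, yet no stretch of this length was shared among Cdh1 to Cdh4.

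Next, the levels of further epithelial and mesenchymal genes were examined. Of 22 genes for epithelial junctions and keratins, 13 lay above the median of protein-coding genes, and their own median was 35.8 per kilobase. Among the highest were Tjp1 (541), which encodes the tight junction scaffold ZO-1, and the claudin gene Cldn4 (266). The lowest were Marveld3 (2.40), Ocln (1.98) and Dsc2 (0.699), which encode tight junction and desmosomal membrane proteins. The keratin genes Krt8, Krt18 and Krt19 had 12.5, 26.8 and 36.7 per kilobase. Krt8 shares 29.7% of its 50-base stretches with other genes, most with the pseudogene Krt8-ps, so its count is uncertain.

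Among 12 epithelial regulators and surface proteases with their inhibitors, 7 lay above the median. Elf3 (466), an epithelial ETS factor, Spint1 (266) and Spint2 (161), inhibitors of matriptase, were highest. St14, which encodes matriptase, had 143 per kilobase. Among the lowest were Ovol1 (4.97) and Ovol2 (2.81), zinc finger factors of epithelia.

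Mesenchymal genes lay lower on the whole, with exceptions. Of the 10 further mesenchymal transcription factors looked for, 8 were in the table and 2 lay above the median, Prrx2 (76.1) and Tcf4 (25.3), while Snai3 (24.2) lay just below it. The lowest were Tbx18 (1.22), Foxc2 (1.21) and Foxc1 (0.565). Of 16 genes for mesenchymal cytoskeleton and matrix, 15 were in the table and 5 lay above the median. Fn1, which encodes fibronectin, had 2479 per kilobase, the matrix gene Sparc had 1183 and the fibronectin receptor gene Itga5 had 249. The smooth muscle genes Acta2 and Tagln had 0.264 and 0.830 per kilobase, and the lowest were Col5a2 (0.162), Col1a2 (0.0554) and Col3a1 (0.00948), which encode fibrillar collagens.

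Counted together, 20 of the 34 epithelial genes and 7 of the 23 mesenchymal genes in the table were above the median of protein-coding genes, that is, 58.8% and 30.4%. The epithelial share depended on length. It was 44.1% without length and 47.1% with the mean coding transcript, against 34.8% and 30.4% of the mesenchymal genes, so that a majority of epithelial genes above the median was not seen under either setting. Vim, Fn1 and Sparc were all in the top 10%, as was Cdh1. These counts are descriptions of a pooled mean and were not tested.

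**Figure D3:**
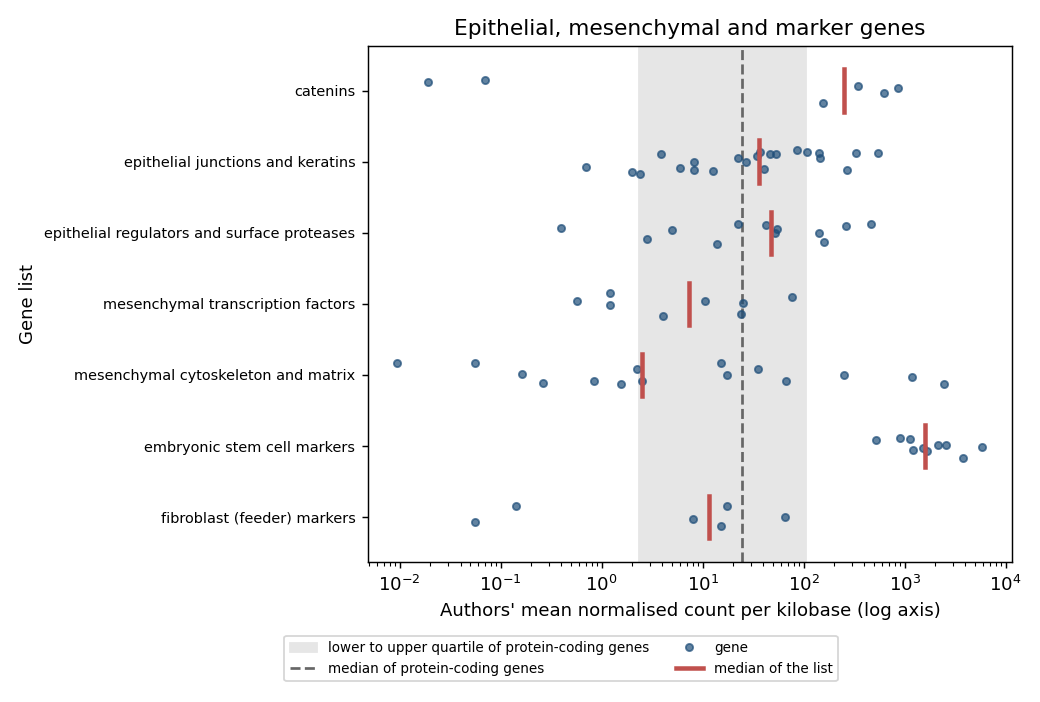
Authors' mean normalised count per kilobase of exon (log axis) for the genes of 7 lists, 1 point a gene, with each list's median in red. The grey band and dashed line mark the quartiles and the median (24.5) of protein-coding genes. All embryonic stem cell markers lie right of the band, and the list medians are 35.8 and 47.5 for the epithelial and 7.28 and 2.51 for the mesenchymal lists.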

How the data were processed

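RNA was depleted of ribosomal RNA, and libraries were made with the Lexogen SENSE total RNA kit and sequenced as single-end reads of 50 bases. The authors aligned reads to GRCm38.p6 and obtained gene counts with STAR 2.5.3a, then normalised them with DESeq2 1.20.0. The authors deposited 1 table, whose mean column is a normalised signal, the gene counts divided by size factors and averaged over libraries. Its remaining value columns hold the authors' own comparison of D2018A with WT (log2 fold change, its standard error, statistic, p-value and adjusted p-value) and were not used here.

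The planned count test of D2018A against WT, with the line as replicate, needs counts per library, and no comparison of genotypes was made. Means were divided by the union of annotated exons in GENCODE vM21, which holds 19351 of the 19429 identifiers, with Python 3.11.15, pandas 2.3.3 and numpy 2.4.6. Of the 10 genes, 8 had the same start and end in GENCODE vM21 as in the deposited coordinates. Exon lengths of the others may rest on a different annotation. Percentiles are shares of 16931 protein-coding genes with a lower value. The 39 unnamed rows hold 0.0191% of the summed means and were kept in that sum only. Single-read values shared by at least 30 genes and not sums of lower ones were counted as libraries. The simulated data on which this was tested held added genes of low mean, so they cannot show that 30 suits these means. A gene's reads were estimated as its mean times the sum of the size factors. Stretches of 50 bases of each gene's GENCODE transcripts were compared with all other genes' on both strands. All 10 genes are described. Of each list, the 3 highest and 3 lowest genes were to be named, with all catenins and other cadherins above the median, and Cdh5, Krt8, Krt18, Krt19, St14, Acta2 and Tagln were added after their values were seen. Some list genes that this rule names are counted but not reported here. Of the stem cell and fibroblast lists only the ends and the highest gene are given. The genes and lists were chosen with earlier results of these data known.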

Additional observations from a re-analysis of the deposited data

How the results depend on the processing

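No paired analysis was possible because the pooled mean carries no values per library, and for the same reason no line could be left out and neither the planned DESeq2 alternative nor the count model was run. The number of the 10 genes above the median, 6, was 5 or 6 under every alternative tried, though not always the same genes: Snai1 fell below with any transcript as length or with genes of a mean of at least 1 as the reference, and without length Cdh4 replaced it. Vim and Cdh1 were first and second under all lengths, whereas Zeb1 moved from the fifth place to the third with a transcript in place of all exons. Without length, 5 cadherins in place of 3 and 2 fibroblast markers in place of 1 lay above the median, while the epithelial junction list fell from 13 to 9, the epithelial regulator list from 7 to 6, and the matrix list rose from 5 to 6. All epithelial genes together then numbered 15 of 34 in place of 20. With genes of a mean of at least 1 as the reference, 1 mesenchymal transcription factor in place of 2 did. The cause of these changes was not tested. The number of libraries was also 12 with values shared by at least 20 genes, and was 5 with at least 50, because 7 of the 12 are shared by fewer. With other lengths, of 40 alternative levels of the 10 genes, 21 lay outside the counting error of the mean, up to 8.68 per kilobase for Zeb2 with the mean coding transcript against 1.09. Another reference set shifts every percentile by construction, and with genes of a mean of at least 1 Zeb2 moved from percentile 19.5 to 8.61. Counting shared stretches on the same strand only gave 0.228% for Zeb1 and 0.264% for Zeb2 and changed no other of the 10 genes. The unshared bases and the longest coding transcript as length were chosen after the data were seen. Depth limits the genes near 1 read, such as Cdh6, where presence cannot be read from the mean.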
